A study of Mus musculus with 39 samples.

Results

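Metallothioneins bind zinc, copper and cadmium through clusters of cysteines, and zinc transporters move zinc across membranes. Of these families, 5 genes were chosen by symbol for this description: the metallothioneins Mt1 and Mt2, the importer Slc39a14 (ZIP14), and the exporters Slc30a1 (ZnT1) and Slc30a10 (ZnT10). All 5 were present among the 24537 genes of the kidney, liver and lung table and among the 52508 genes of the skin table. They were chosen with results of the same libraries known, over all 4 tissues and 3 groups. Their values and fold changes are therefore a description, and no p-value is given for them.

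Cells keep free zinc low by buffering it on metallothioneins and by moving it out of the cytosol through ZnT transporters, while ZIP transporters bring zinc into the cytosol. The metal-responsive transcription factor MTF1 binds metal response elements in the promoters of Mt1, Mt2 and Slc30a1 when zinc rises, and glucocorticoids and interleukin 6 also induce metallothioneins in the liver. ZIP14 carries zinc, iron and manganese into hepatocytes during inflammation, and ZnT10 exports manganese.

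RNA was measured by 3' sequencing in kidney, liver, lung and skin of perforin-deficient (Prf1-/-) C57BL/6 mice, which lack the pore-forming protein that cytotoxic lymphocytes release. Young mice were 3 months old and untreated. Old mice were 20 months old and had received either the vehicle, which contained DMSO, or ABT-737 by intraperitoneal injection. ABT-737 blocks the anti-apoptotic proteins BCL-2, BCL-xL and BCL-w, and it was given at 25 mg/kg on 2 consecutive days each month for 2 months from 18 months of age. The study describes the mice of this treatment experiment as male, whereas its general methods mention mice of both sexes, and the labels used here give no sex. All groups were perforin-deficient, so every comparison was made within that genotype. Young mice had not been injected, so age and the injections cannot be told apart between young and vehicle-treated old mice. Replicates 4 and 5 of the treated group carry the names ABT-738 and ABT-739 in the treatment label of the submitters and were kept in the ABT-737 group that their titles give. Kidney, liver and lung had 4 young, 3 vehicle and 3 ABT-737 libraries each, and skin had 3 of each.

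Kidney libraries held 1431814 to 3513311 counts, liver libraries 223957 to 891116, lung libraries 1046508 to 2600092 and skin libraries 1493411 to 3842808. The shallowest liver library was vehicle replicate 3. Markers of the labelled tissue were high in every library: 8 kidney tubule genes summed to 14487 to 17833 CPM (counts per 1000000 of the TMM-scaled library total), 8 hepatocyte genes to 59609 to 99998, 8 alveolar and club cell genes to 25204 to 58828, and 8 keratinocyte genes to 12005 to 35982. Lung ABT-737 replicate 4 stood apart, with 8 adipocyte genes summing to 6238 CPM against 74.4 to 245 in the other lung libraries. Summed leukocyte markers (10 genes) differed between the groups in each tissue, and their ranges stand beside the results below.

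Mt2 and Mt1 lie next to each other on the plus strand of chromosome 8 (mm10), at 94172618 to 94173567 and 94179089 to 94180327, with 5521 bases and 0 listed genes between them. Slc39a14 lies on the minus strand of chromosome 14 at 70303467 to 70351424. Slc30a1 and Slc30a10 lie on the plus strand of chromosome 1, at 191906781 to 191913247 and 185454848 to 185468761. The bases before the start sites of Mt1, Mt2 and Slc30a1 follow, because these are the promoters through which MTF1 is known to act, with each match to the metal response element core in capitals. They run 5' to 3' on the plus strand of GRCm38.p6 and come from RefSeq. For Mt1 the stretches are chr8:94178839-94179088 and the first 30 bases from its RefSeq start, chr8:94179089-94179118. They are chr8:94172368-94172617 for Mt2 and chr1:191906531-191906780 for Slc30a1.
Mt1, 250 bases before the start: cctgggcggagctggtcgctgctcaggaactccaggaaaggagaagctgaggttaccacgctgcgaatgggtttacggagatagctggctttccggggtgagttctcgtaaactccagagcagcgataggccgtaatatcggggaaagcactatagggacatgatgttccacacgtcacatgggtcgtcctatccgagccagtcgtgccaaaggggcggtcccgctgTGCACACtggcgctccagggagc
Mt1, first 30 bases: tcTGCACTCcgcccgaaaagTGCGCTCggc
Mt2, 250 bases before the start: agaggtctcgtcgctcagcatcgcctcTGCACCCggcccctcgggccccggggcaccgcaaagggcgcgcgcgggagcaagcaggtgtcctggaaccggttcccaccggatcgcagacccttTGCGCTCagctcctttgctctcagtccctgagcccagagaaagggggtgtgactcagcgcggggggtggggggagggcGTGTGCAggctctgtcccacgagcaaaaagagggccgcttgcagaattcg
Slc30a1, 250 bases before the start: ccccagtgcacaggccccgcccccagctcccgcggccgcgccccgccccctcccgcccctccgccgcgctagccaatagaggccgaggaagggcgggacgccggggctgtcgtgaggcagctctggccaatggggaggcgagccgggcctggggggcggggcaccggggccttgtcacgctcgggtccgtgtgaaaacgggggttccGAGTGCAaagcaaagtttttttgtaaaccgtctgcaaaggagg
The core searched was TGCACNC or TGCGCNC, on both strands, in windows from 250 bases before to 50 after each start. Counted from its RefSeq start, Mt1 held 3 matches, 23 bases before the start and at bases 3 and 21 after it. The transcript model of Mt1 used for skin starts 152 bases further downstream, beyond this window, so by that model all 3 matches lie before the start. The bases just before that other start were therefore not searched. Mt2 held 4 matches, of which those 223, 128 and 50 bases before the start are shown above. Slc30a1 held 2 matches, 43 bases before the start and at base 31. Slc30a10 (chr1:185454598-185454847 upstream) held 3, of which the pair 233 and 232 bases before the start overlap on opposite strands. At least 1 match stood in 25.7% of 32851 windows of the same length from 27025 genes, and 3 or more stood in 1.97%. The antioxidant response element core TGACNNNGC matched once in Mt2, 79 bases before the start, and once in Slc30a1, 82 bases before it, and it matched in 12.4% of all windows. The STAT core TTCNNNGAA, present in 8.30% of windows, had no match in these 4 windows. Slc39a14 was not among the promoter sequences used here. A match describes letters and is not evidence of binding.

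Each tissue was fitted with edgeR's quasi-likelihood test, and a gene was called at a Benjamini-Hochberg adjusted p under 0.05 over all genes tested there. All 5 genes were tested in liver, and 4 were tested in kidney, lung and skin, where the filter on low counts left out Slc30a10. In liver, 2 of 5 were called between vehicle-treated old and young mice, where 22.6% of all genes were called, 2 of 5 between ABT-737 and vehicle (3.85% of all genes), and 1 of 5 between ABT-737 and young (8.40%). In kidney the count was 1 of 4 between vehicle and young (13.3% of all genes), 0 of 4 between ABT-737 and vehicle (1.35%) and 0 of 4 between ABT-737 and young (2.12%). In lung it was 0 of 4 between vehicle and young (12.9%), between ABT-737 and vehicle (0.00%) and between ABT-737 and young (2.55%). In skin it was 1 of 4 between vehicle and young (11.2%), 0 of 4 between ABT-737 and vehicle (0.00%) and 0 of 4 between ABT-737 and young (5.17%). Of the comparisons with 0 calls by edgeR, an unadjusted p under 0.05 was reached by 1 member in each of the kidney comparisons, by 2 members between ABT-737 and young in lung and in skin, and by 0 members in the rest. DESeq2 also called 0 members in those comparisons, except for 2 between ABT-737 and young in skin. The 0.00% over all genes between ABT-737 and vehicle depended on the method and the libraries. DESeq2 called 301 of 11949 lung genes and 60 of 14224 skin genes there. Without ABT-737 replicate 4, edgeR called 676 of 12461 lung genes. The members were chosen with these contrasts known, so nothing is read from the counts of members called.

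**Figure D1:**
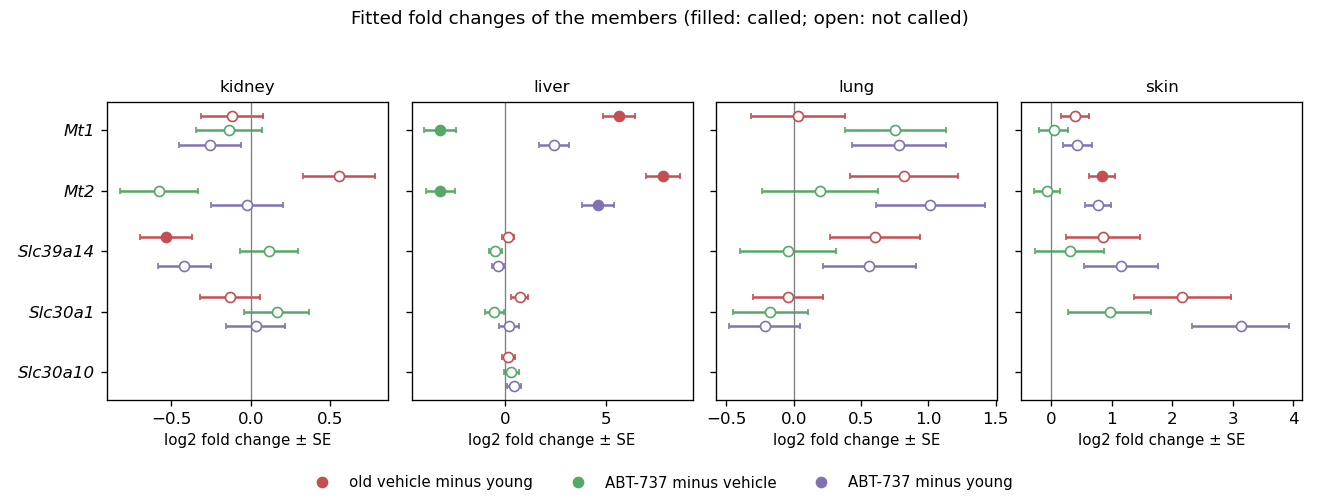
Log2 fold changes (x axis, with standard error bars) of the 5 genes in each tissue, one panel per tissue, for old vehicle minus young (red), ABT-737 minus vehicle (green) and ABT-737 minus young (purple); filled points were called and open points were not. The metallothioneins in liver lie farthest from 0, at 5.65 and 7.84 for vehicle minus young and -3.22 for ABT-737 minus vehicle, and Slc30a10 was tested in liver alone.

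In the liver, both metallothionein transcripts were far higher in vehicle-treated old mice than in young mice and lower again in ABT-737-treated old mice. Mt1 stood at 75.5, 115, 35.3 and 24.9 CPM in young livers, at 388, 6951 and 2160.2 CPM in vehicle livers, and at 602, 321 and 111 CPM in ABT-737 livers. The vehicle livers lay above all young livers, with replicate 4 the highest, whereas ABT-737 replicate 5 fell within the young range and ABT-737 replicate 3 within the vehicle range. On the log2 scale the fold change was 5.65 (SE 0.79), or 50.2-fold higher, for vehicle against young, -3.22 (SE 0.79), or 9.34-fold lower, for ABT-737 against vehicle, and 2.43 (SE 0.74) for ABT-737 against young, of which the first and the second were called.

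Mt2, which encodes the other metallothionein made in most tissues, followed Mt1. It stood at 13.6, 8.94, 13.8 and 7.67 CPM in young livers, which were only 4 to 9 counts per library, at 367, 5535 and 1804 CPM in vehicle livers, and at 563, 178 and 111 CPM in ABT-737 livers. Every old liver lay above every young one, and the treated and vehicle livers overlapped because vehicle replicate 3 lay below ABT-737 replicate 3. Fitted on the log2 scale, Mt2 changed by 7.84 (SE 0.83), or 229.6-fold higher, for vehicle against young, -3.22 (SE 0.71), or 9.29-fold lower, for ABT-737 against vehicle, and 4.63 (SE 0.79) for ABT-737 against young, and all 3 were called.

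Within the vehicle group the libraries spanned a wide range for both genes, so the difference from ABT-737 depended on which mice entered. Leaving out vehicle replicate 4 brought it to -1.92 for Mt1 and -1.99 for Mt2, and neither was then called. Leaving out treated replicate 4 (-3.17 and -2.95) or treated replicate 5 (-2.78 and -2.81) also ended the calls, as did a fit that held no young livers (-3.23 and -3.21). The calls for vehicle against young were kept in all 10 fits with 1 library left out, between 4.35 and 6.16 for Mt1 and between 6.62 and 8.35 for Mt2. Mt1 in ABT-737 against young livers became called when any 1 vehicle liver was left out (2.42 to 2.43). Summed leukocyte markers were 294 to 447 CPM in young, 2088 to 4656 in vehicle and 404 to 797 in ABT-737 livers. Within the vehicle livers that sum was highest in replicate 3, the library with the lowest metallothionein levels. The part of leukocytes in these levels was not tested, and in whole tissue fewer cells of a type and less RNA per cell cannot be told apart.

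**Figure D2:**
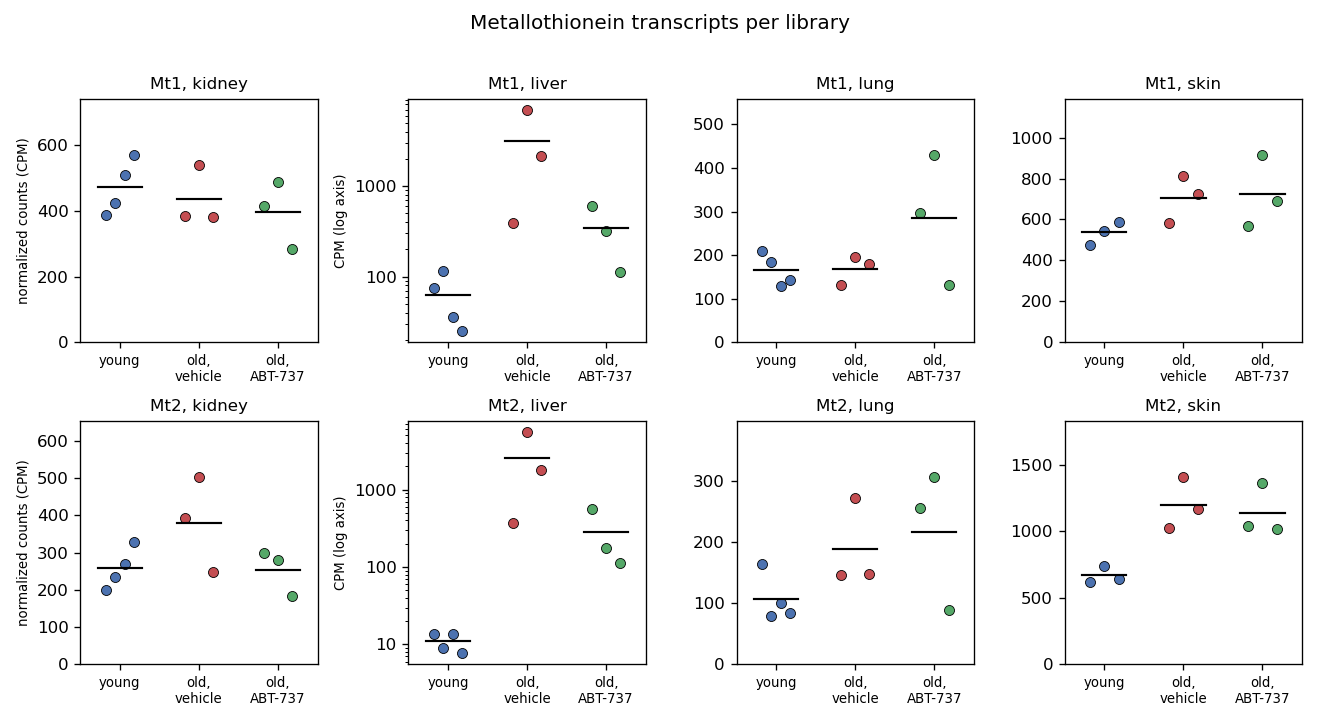
Normalized counts (CPM, y axis; the liver panels have a log axis and the others start at 0) of Mt1 (top) and Mt2 (bottom) in each library of young, old vehicle and old ABT-737 mice in the 4 tissues, with the group mean as a line. In liver the vehicle libraries reach 6951 CPM for Mt1 and 5535 CPM for Mt2, while in the other tissues the groups of Mt1 overlap.

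In the kidney, neither metallothionein was called. Mt1 stood at 389, 423, 511 and 571 CPM in young, 386, 542 and 382 CPM in vehicle and 417, 488 and 283 CPM in ABT-737 kidneys, and the 3 groups overlapped. For Mt1 the log2 fold change was -0.12 (SE 0.19) for vehicle against young and -0.14 (SE 0.21) for ABT-737 against vehicle. Mt2 stood at 199, 236, 270.5 and 329 CPM in young, 393, 503 and 247 CPM in vehicle and 299.5, 279.6 and 184 CPM in ABT-737 kidneys. Vehicle replicates 3 and 4 lay above every other kidney, but replicate 5 lay within the young and treated ranges. For Mt2 the log2 fold change was 0.56 (SE 0.23) for vehicle against young, -0.58 (SE 0.25) for ABT-737 against vehicle and -0.02 (SE 0.23) for ABT-737 against young, and none was called. Without vehicle replicate 5 the first was called, at 0.79. Leukocyte markers summed to 932 to 1436 CPM in young, 4633 to 7745 in vehicle and 1647 to 2411 in ABT-737 kidneys, and their part in these values was not tested.

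In the lung, the highest level of both metallothioneins came from ABT-737 replicate 4, and the groups overlapped. Mt1 stood at 209, 184, 128 and 142 CPM in young, 131, 196 and 179.5 CPM in vehicle and 298, 429.9 and 131 CPM in ABT-737 lungs. ABT-737 replicates 3 and 4 lay above the rest and replicate 5 lay among the lowest. Its log2 fold change was 0.03 (SE 0.35) for vehicle against young and 0.75 (SE 0.38) for ABT-737 against vehicle.

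Mt2 stood at 164, 78.6, 99.8 and 83.2 CPM in young, 146, 271 and 147 CPM in vehicle and 256, 306 and 88.1 CPM in ABT-737 lungs, and all groups overlapped. Its log2 fold change was 0.82 (SE 0.40) for vehicle against young, 0.19 (SE 0.43) for ABT-737 against vehicle and 1.02 (SE 0.40) for ABT-737 against young. ABT-737 replicate 4, the lung with the adipocyte transcripts, had the highest level of both genes, and without it the difference from vehicle was 0.33 for Mt1 and -0.15 for Mt2. The deviations of same-numbered vehicle and treated lungs from their group means correlated at 0.18, 0.30 and 0.43. Vehicle replicate 4 and treated replicate 3 also reached 0.30, and the labels give no pairing. With this pairing from the data as a block, the difference was 0.63 (SE 0.32) for Mt1 and 0.08 (SE 0.32) for Mt2. The block called 0 of 4 members against 7.31% of all lung genes. Leukocyte markers summed to 8448 to 10833 CPM in young, 15580 to 24074 in vehicle and 10574 to 20921 in ABT-737 lungs.

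In the skin, Mt2 was higher in both groups of old mice than in young mice, while Mt1 overlapped between the groups. Mt2 stood at 619, 741 and 644 CPM in young, 1027, 1406 and 1169 CPM in vehicle and 1043, 1361 and 1014 CPM in ABT-737 skin, so neither old group overlapped the young one. The log2 fold change of Mt2 was 0.85 (SE 0.21) for vehicle against young, which was called, 0.77 (SE 0.21) for ABT-737 against young, which was not, and -0.08 (SE 0.21) for ABT-737 against vehicle. Mt1 stood at 477, 544 and 589 CPM in young, 583, 810.0 and 725 CPM in vehicle and 569.8, 915 and 689.6 CPM in ABT-737 skin, with the lowest library of each old group just under the highest young one. For Mt1 the log2 fold change was 0.40 (SE 0.23) for vehicle against young and 0.04 (SE 0.23) for ABT-737 against vehicle. The call for Mt2 was kept only without ABT-737 replicate 3 (0.85) or 4 (0.85) and was lost in the other 7 fits with 1 library left out, those without any of young replicates 1 to 3, vehicle replicates 3 to 5 or ABT-737 replicate 5, where it lay between 0.71 and 0.93. Mt2 in ABT-737 against young skin became called without ABT-737 replicate 3 (0.83). Summed skeletal muscle markers (8 genes) were 60679 to 86176 CPM in young, 9320 to 41367 in vehicle and 14994 to 47269 in ABT-737 skin, and leukocyte markers were 446 to 1476, 4039 to 5038 and 1092 to 2609 CPM. The part of either in the skin values was not tested.

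Because the metallothioneins can be read as a ratio within a library, free of scaling between libraries, the share of Mt2 among the counts of both genes was computed, a measure chosen after the values had been seen and given without a test. In kidney the share was 33.8, 35.8, 34.6 and 36.6% in young, 50.4, 48.1 and 39.3% in vehicle and 41.8, 36.4 and 39.3% in ABT-737 mice. In liver it was 15.2, 7.23, 28.1 and 23.5% in young, 48.6, 44.3 and 45.5% in vehicle and 48.3, 35.7 and 50.0% in ABT-737 mice. The vehicle libraries of both tissues lay above all young ones, and treated livers did as well.

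The lung share was 43.9, 29.97, 43.8 and 37.0% in young, 52.8, 58.1 and 45.0% in vehicle and 46.2, 41.5 and 40.2% in ABT-737 mice. The skin share was 56.5, 57.7 and 52.2% in young, 63.8, 63.4 and 61.7% in vehicle and 64.7, 59.8 and 59.5% in ABT-737 mice. In both tissues the vehicle libraries again lay above the young ones, in lung by a small margin, since the exact 95% binomial interval of vehicle replicate 5 (41.7 to 48.4%) covered the highest young values. The mean share was 35.2 ± 1.24% (SD, n = 4) in young and 46.0 ± 5.86% (n = 3) in vehicle kidneys. For livers these means were 18.5 ± 9.23% and 46.1 ± 2.18%, for lungs 38.7 ± 6.65% and 52.0 ± 6.57%, and for skin 55.4 ± 2.87% (n = 3) and 63.0 ± 1.11%. In ABT-737 mice it was 39.2 ± 2.71%, 44.7 ± 7.79%, 42.7 ± 3.16% and 61.3 ± 2.89% in kidney, liver, lung and skin (n = 3 each). Young livers had few metallothionein counts, and their intervals were wide, 2.70 to 15.1% for replicate 2 and 6.81 to 49.9% for replicate 4. The skin was counted over other transcript models, in which Mt1 starts 152 bases further downstream, so its shares are not set against those of the other tissues.

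**Figure D3:**
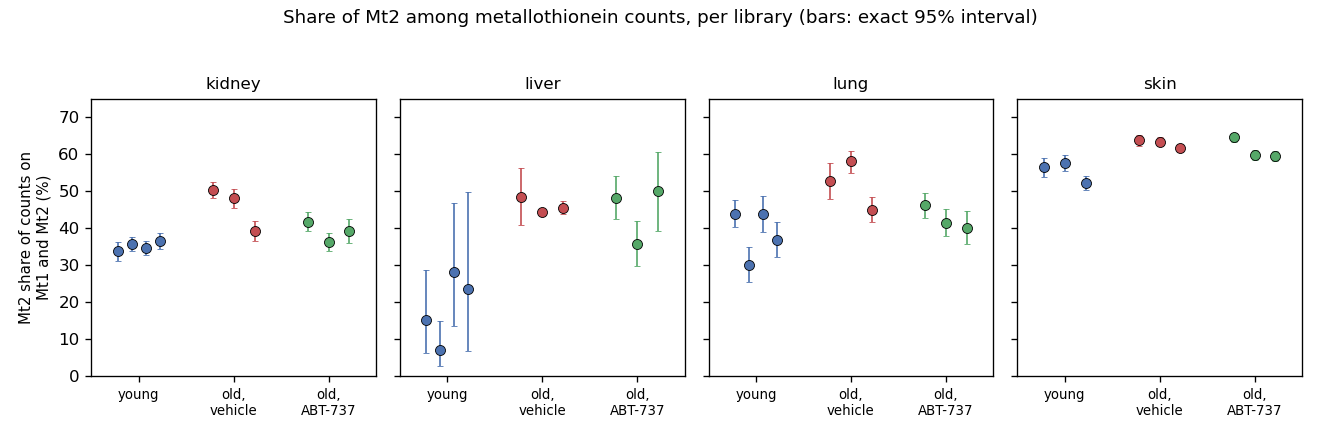
Share of Mt2 among the counts of Mt1 and Mt2 (%, y axis from 0) in each library of the 3 groups, one panel per tissue, with exact 95% binomial intervals that cover counting error only. In each tissue the vehicle libraries lie above the young ones, for example 44.3 to 48.6% against 7.23 to 28.1% in liver.

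The paralogs are alike in their coding sequence, and the longest stretch the transcripts Mt1-201 and Mt2-201 (GENCODE M21) share without a mismatch is 20 bases. Within the last 200 bases of either transcript, where 3' reads fall, the longest stretch found in the other is 12 bases. No other gene held the same counts as a member across the libraries of a table, leaving aside Slc30a10 in skin, which had 0 counts in all libraries. Antisense genes overlap 4 members, and the use of strand in counting was not given in the sources used here. Counts were read for 3 of them. Gm45774 opposite Mt2 had 1 to 18 in skin, and Gm2061 opposite Slc30a10 had at most 2. For 1700034H15Rik opposite Slc30a1 the highest was 14 over kidney, liver and lung and 13 in skin. Slc30a1 itself held 3 to 31 counts per library in liver and 8, 8 and 17 in young skin. The part of the antisense gene in the Slc30a1 values was not tested. Gm4240, which GENCODE M21 places opposite the Slc39a14 transcript of the skin table, was not analysed here.

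Slc39a14, the ZIP14 importer, was lower in old than in young kidneys and was called nowhere else. In kidney it stood at 42.5, 42.7, 38.6 and 43.4 CPM in young, 35.3, 25.3 and 24.9 CPM in vehicle and 30.3, 30.7 and 32.7 CPM in ABT-737 mice. Every old kidney lay below every young one, and the vehicle kidneys lay on both sides of the treated ones. The log2 fold change was -0.53 (SE 0.17) for vehicle against young, which was called, -0.42 (SE 0.17) for ABT-737 against young, which was not, and 0.11 (SE 0.18) for ABT-737 against vehicle. The call was lost without any 1 of young replicates 1 to 4 (-0.59 to -0.51), without vehicle replicate 4 (-0.46) or without vehicle replicate 5 (-0.43), with DESeq2 (-0.54) and with no filter on low counts (-0.55). Without vehicle replicate 3 the difference was -0.74, and ABT-737 against vehicle became 0.32.

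In liver, Slc39a14 stood at 161, 128, 151 and 106 CPM in young, 65.5, 198 and 164 CPM in vehicle and 131, 116 and 76.7 CPM in ABT-737 mice. The groups overlapped, and the lowest value came from vehicle replicate 3, the shallowest library, with 15 counts. Its log2 fold change was 0.14 (SE 0.29) for vehicle against young and -0.49 (SE 0.33) for ABT-737 against vehicle.

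Lung held 10 to 55 counts of Slc39a14 per library. It stood there at 8.83, 15.3, 8.14 and 10.9 CPM in young, 14.8, 13.3 and 20.6 CPM in vehicle and 18.0, 10.5 and 17.9 CPM in ABT-737 mice, with overlap between the groups. It changed on the log2 scale by 0.60 (SE 0.34) for vehicle against young and -0.04 (SE 0.36) for ABT-737 against vehicle. In skin it stood at 13.7, 14.4 and 15.9 CPM in young, 25.5, 14.6 and 39.7 CPM in vehicle and 8.82, 60.3 and 30.8 CPM in ABT-737 mice. Among treated skins, replicate 4 was the highest and replicate 3 the lowest of all 9. In skin its log2 fold change was 0.86 (SE 0.61) for vehicle against young, 1.16 (SE 0.61) for ABT-737 against young and 0.30 (SE 0.58) for ABT-737 against vehicle, and none was called. Without treated replicate 4, ABT-737 against vehicle turned to -0.44 and ABT-737 against young was 0.42, and without treated replicate 3 they were 0.76 and 1.62, of which the second was called.

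Slc30a1, the ZnT1 exporter of the plasma membrane, showed its widest spread in skin. It stood there at 5.79, 4.6 and 7.73 CPM in young, 22, 31.0 and 29.8 CPM in vehicle and 6.49, 97.1 and 59.7 CPM in ABT-737 mice. The vehicle skins lay above all young ones, while ABT-737 replicate 3 lay within the young range and replicates 4 and 5 above every other skin. The log2 fold change was 2.17 (SE 0.80), or 4.49-fold higher, for vehicle against young, 3.14 (SE 0.80) for ABT-737 against young and 0.97 (SE 0.68) for ABT-737 against vehicle, and none was called. DESeq2 called the first, and it called the second as well. Without ABT-737 replicate 3, both differences from young were called, at 2.16 for vehicle and 3.66 for ABT-737, and ABT-737 against vehicle was 1.499 and not called. Without ABT-737 replicate 4, ABT-737 against young was 2.43 and ABT-737 against vehicle 0.26, neither called. In treated skin replicate 3 the muscle markers summed to 47269 CPM, against 16918 and 14994 CPM in treated replicates 4 and 5. The part of this in Slc30a1 was not tested.

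In kidney, Slc30a1 stood at 65.2, 84.3, 74.9 and 77.1 CPM in young, 88.0, 47.2 and 69.0 CPM in vehicle and 90.9, 76.2 and 64.4 CPM in ABT-737 mice. In liver it stood at 7.74, 22.4, 23.0 and 15.3 CPM in young, 13.1, 25.8 and 39.8 CPM in vehicle and 19.8, 28.5 and 9.90 CPM in ABT-737 mice. The groups overlapped in both tissues, and the liver values rest on 3 to 31 counts per library. In lung it stood at 43.7, 32.7, 36.9 and 32.7 CPM in young, 44.9, 33.0 and 29.2 CPM in vehicle and 27.7, 27.4 and 38.5 CPM in ABT-737 mice, again with overlap. For vehicle against young the log2 fold change was -0.13 (SE 0.19) in kidney, 0.72 (SE 0.41) in liver and -0.04 (SE 0.26) in lung. For ABT-737 against vehicle it was 0.16 (SE 0.20), -0.54 (SE 0.47) and -0.17 (SE 0.28). In liver, Slc30a1 was not called in any of the 3 comparisons. Its counts there were low and the errors wide, so nothing is read from the missing calls.

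Slc30a10, the manganese exporter, was detected in liver and almost nowhere else. It stood at 46.5, 22.4, 30.7 and 30.7 CPM in young, 13.1, 33.9 and 48.8 CPM in vehicle and 39.6, 51.2 and 39.6 CPM in ABT-737 livers, on 3 to 38 counts per library. The groups overlapped, and the log2 fold change was 0.16 (SE 0.34) for vehicle against young, 0.30 (SE 0.37) for ABT-737 against vehicle and 0.46 (SE 0.35) for ABT-737 against young. In the other tissues it had 0 counts in all libraries except for 1 count in kidney ABT-737 replicate 4 and 1 in lung vehicle replicate 3. At a floor of 3 counts per library no fold is given there.

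**Figure D4:**
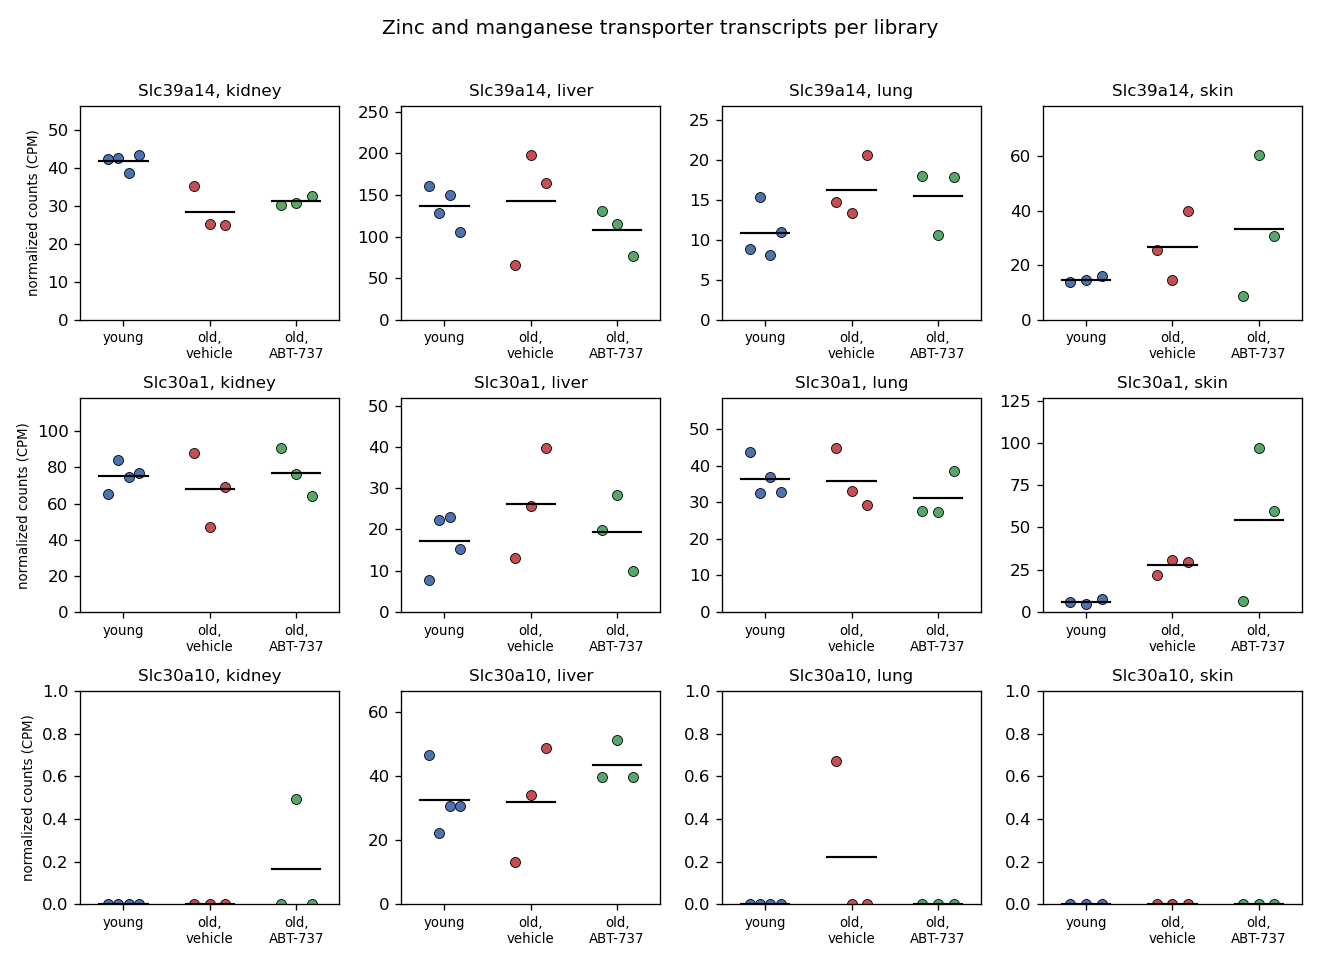
Normalized counts (CPM, linear y axes from 0) of Slc39a14, Slc30a1 and Slc30a10 in each library of the 3 groups and 4 tissues, with the group mean as a line. Slc39a14 is lower in the 6 old kidneys than in the 4 young ones, Slc30a1 reaches 97.1 CPM in one treated skin, and Slc30a10 shows counts in the liver.

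Scaled together over the 30 libraries of kidney, liver and lung, Slc39a14 was highest in liver in all 3 groups. Its mean level was 186 ± 33.6, 197 ± 100.2 and 144 ± 32.8 CPM (SD) in young (n = 4), vehicle (n = 3) and ABT-737 (n = 3) livers. It was 37.5 ± 1.93, 25.3 ± 5.57 and 27.9 ± 1.33 CPM in kidneys, and 8.63 ± 2.59, 12.9 ± 3.25 and 12.4 ± 3.48 CPM in lungs. The library ranges of the 3 tissues did not overlap for this gene within a group.

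Slc30a1 was highest in kidney in young and treated mice. It averaged 67.6 ± 7.63, 60.5 ± 19.1 and 68.8 ± 11.1 CPM in kidneys, 23.4 ± 10.001, 36.5 ± 20.5 and 26.2 ± 13.5 CPM in livers and 29.1 ± 3.97, 28.4 ± 6.46 and 24.9 ± 5.09 CPM in lungs, for young, vehicle and ABT-737. Liver and lung overlapped in all groups, and kidney and liver overlapped in vehicle mice. Scaled by total counts, liver and lung did not overlap in young mice, and in vehicle mice kidney overlapped lung and not liver. Slc30a10 averaged 44.3 ± 13.3, 44.6 ± 27.1 and 58.7 ± 12.7 CPM in livers.

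The order of tissues for the metallothioneins depended on the group. In young mice Mt1 averaged 424 ± 70.4 CPM in kidney, 132 ± 29.4 in lung and 85.7 ± 56.9 in liver, the latter pair overlapping. In vehicle mice it averaged 4376 ± 4636 CPM in liver, 385 ± 71.6 in kidney and 134 ± 26.5 in lung, with the lowest vehicle liver (492 CPM) above the highest vehicle kidney (468 CPM). Scaled by total counts, these tissues overlapped (397 CPM in the lowest vehicle liver and 553 CPM in the highest vehicle kidney), as they did for Mt2 (375 and 513 CPM), and young liver and lung did not overlap for Mt1. In ABT-737 mice it averaged 449.5 ± 293 CPM in liver, 354 ± 97.1 in kidney and 228 ± 118 in lung, and the tissues overlapped. Mt2 ran in young mice from 231 ± 47.7 CPM in kidney to 84.8 ± 31.0 in lung and 15.001 ± 4.30 in liver, without overlap. In vehicle mice Mt2 averaged 3549 ± 3644 CPM in liver, 336 ± 107 in kidney and 149 ± 55.1 in lung, and in ABT-737 mice 366 ± 285, 227 ± 54.9 and 172 ± 90.2 CPM. The skin was counted in another table and is not set against these levels.

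Across libraries, the Pearson r between log2(CPM + 1) of Mt1 and of Mt2 was 0.95 in liver over 10 libraries, 0.64 in kidney, 0.77 in lung (10 libraries each) and 0.85 in skin (9 libraries). These coefficients span the 3 groups, the libraries share their scaling, and they carry no test. The genes whose levels were most like Mt1 in liver were Kng2 (r = 0.97), a kininogen, Slc3a1 (0.95), an amino acid transporter subunit, Lrg1 (0.95), a secreted acute-phase glycoprotein, Atxn7l3b (0.93) and the neutrophil protease Prtn3 (0.93), which ranked 14 with a pseudocount of 0.1 in place of 1 (0.91). Those most like Mt1 were led by Rprd1b in kidney (0.92), Rhou in lung (0.92) and Glyr1 in skin (0.94). For Slc39a14 they were led by Usp2 in kidney (0.98), Gtf3c2 in liver (0.96), Arid3a in lung (0.91) and Rcl1 in skin (0.98).

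The rest of the zinc transporter families, 13 other ZIP and 8 other ZnT genes taken by family, gave 3 genes called, 1 in lung and 2 in skin. The genes tested numbered 8 ZIP and 5 ZnT in kidney and 6 and 1 in liver. In lung 11 and 4 were tested, and in skin 10 and 5. In kidney and liver 0 were called in any comparison by edgeR or by DESeq2, with an unadjusted p under 0.05 for 1 to 3 genes per comparison. In lung, Slc39a1, an importer of the plasma membrane, was higher in vehicle than in young mice, and it was the 1 gene called of 15, where 12.9% of all lung genes were called. It stood at 9.32, 9.73, 10.3 and 10.4 CPM in young, 22.1, 16.3 and 29.2 CPM in vehicle and 8.37, 10.5 and 21.9 CPM in ABT-737 lungs, so every vehicle lung lay above every young one. Its log2 fold change was 1.18 (SE 0.36, edgeR quasi-likelihood test, Benjamini-Hochberg adjusted p = 0.043). The call was lost without any 1 of the 4 young lungs (1.15 to 1.22), without vehicle replicate 3 (1.20) or without vehicle replicate 5 (0.94). The leukocyte markers given above differed between young and vehicle lungs, and their part in Slc39a1 was not tested.

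In skin, the importer Slc39a11 rose and Slc30a9 fell between young and vehicle-treated old mice, 2 of 15 genes tested, where 11.2% of all skin genes were called. Slc39a11 stood at 4.34, 5.75 and 8.64 CPM in young, 37.4, 19.6 and 21 CPM in vehicle and 14.3, 21.9 and 25.9 CPM in ABT-737 skin, with both old groups above the young one. Its log2 fold change by edgeR was 2.005 (SE 0.39, Benjamini-Hochberg adjusted p = 0.0182) for vehicle against young and 1.68 (SE 0.39, adjusted p = 0.0425) for ABT-737 against young. The first call was lost without young replicate 1 (1.82) or 2 (1.93). The second was lost without any young skin (1.496 to 1.98), ABT-737 replicate 4 (1.64) or ABT-737 replicate 5 (1.49). In young skin Slc39a11 rested on 6, 10 and 19 counts. The muscle and leukocyte markers given above also differed between young and vehicle skin, and their part in its values was not tested.

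Slc30a9 stood at 86.1, 80.0 and 62.8 CPM in young, 40.0, 44.5 and 42.5 CPM in vehicle and 51.1, 54.1 and 41.7 CPM in ABT-737 skin, with both old groups below the young one. Its log2 fold change by edgeR was -0.85 (SE 0.19, Benjamini-Hochberg adjusted p = 0.0258) for vehicle against young. This call was lost without young replicate 1 (-0.76) or 2 (-0.82), vehicle replicate 3 (-0.82) or vehicle replicate 5 (-0.84). The part of muscle and leukocyte transcripts in the Slc30a9 values was not tested either.

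Between ABT-737 and vehicle, edgeR called 0 of these transporters in any tissue, with an unadjusted p under 0.05 for 1 ZIP gene in each tissue and for 0 ZnT genes, and DESeq2 also called 0. With the replicate number as a block, edgeR called 1 of 15 in lung, Slc39a4, an importer known from intestinal zinc uptake, at 0.88 (SE 0.22, adjusted p = 0.0289). The pairing behind that block came from the same lung data, so nothing is read from this p-value. Mtf1 was tested in all 4 tissues and was called in no comparison, with log2 fold changes between -0.37 and 0.49. Mt4, a metallothionein of stratified epithelia, was tested in skin alone and not called by edgeR, at 0.92 (SE 0.54) for vehicle against young, 1.60 (SE 0.55, Benjamini-Hochberg adjusted p = 0.0967) for ABT-737 against young and 0.68 (SE 0.53) for ABT-737 against vehicle.

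**Figure D5:**
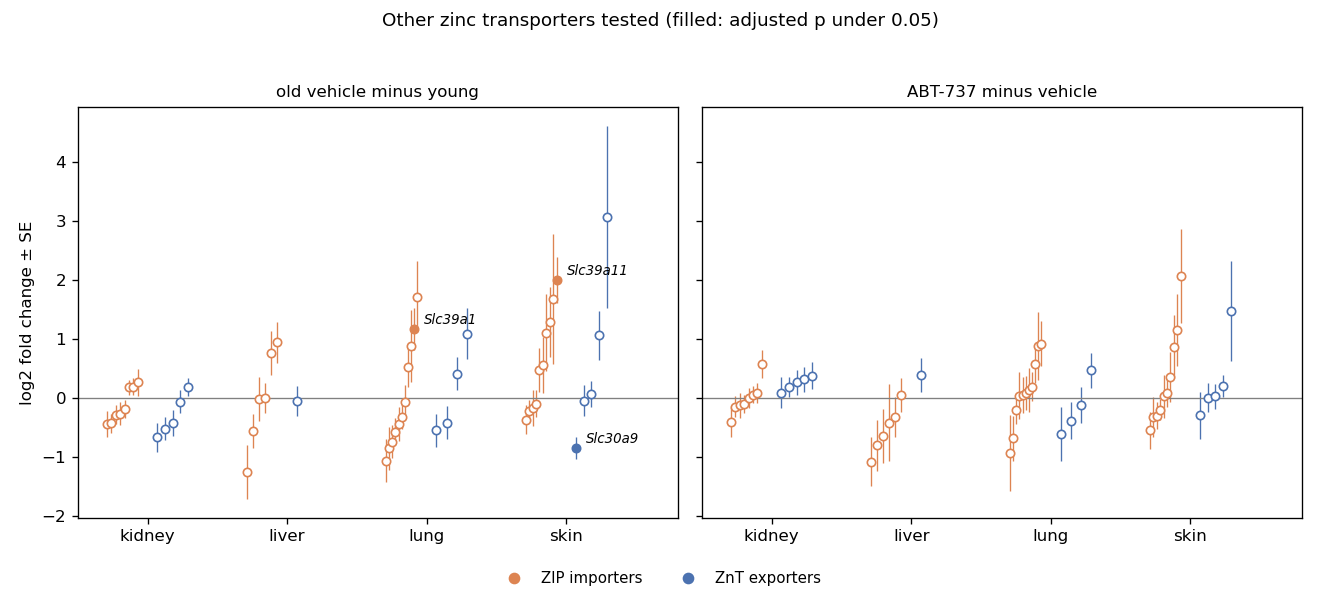
Log2 fold changes (y axis, with standard error bars) of the other ZIP importers (orange) and ZnT exporters (blue) tested in each tissue, for old vehicle minus young (left) and ABT-737 minus vehicle (right); filled points were called. Slc39a1 in lung and Slc39a11 and Slc30a9 in skin are filled on the left, and no point is filled on the right.

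Genes of copper, iron and manganese handling were called in both directions. In liver 4 of 22 tested rose and 2 fell between young and vehicle mice, a share near the 22.6% of all liver genes called, with a median log2 fold change of 0.13 over the list and 0.02 over all genes. Hmox1, which degrades haem and responds to oxidative stress, rose by 2.94 (SE 0.32, edgeR, Benjamini-Hochberg adjusted p = 2.25e-05). It was the 1 gene called of 6 oxidative stress genes tested in liver, here and in ABT-737 against vehicle. Of those 6 genes, 3 lay higher and 3 lower in each comparison, with median log2 fold changes of 0.13 and -0.16. The iron exporter Slc40a1 (ferroportin) fell by 1.93 on the log2 scale (SE 0.46, edgeR, adjusted p = 0.00751), a call lost without vehicle replicate 4 (-1.51). Slc40a1 rested on 0, 5 and 15 counts in vehicle replicates 3, 4 and 5. Between ABT-737 and vehicle 3 of 22 fell and 0 rose in liver, and Hmox1 was the lowest, at -3.22 (SE 0.40; edgeR, adjusted p = 0.000281). Hmox1 stood at 8.94 to 26.9 CPM in young, 82.9, 146 and 143 CPM in vehicle and 19.8, 13.3 and 9.90 CPM in ABT-737 livers. Unlike Mt1 and Mt2 it kept its call in all 10 fits with 1 library left out. The leukocyte markers given above differed between the liver groups in the same directions, and their part in Hmox1 was not tested.

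In kidney 4 of 22 genes of this list rose and 3 fell between young and vehicle mice (13.3% of all kidney genes were called), among them the phagocyte metal transporter Slc11a1, at 2.09 (SE 0.39), and the transferrin receptor Tfrc, at -1.78 (SE 0.45), whose call was lost without vehicle replicate 5 (-1.44). Tfrc rested on 7, 3 and 2 counts in vehicle kidney replicates 3, 4 and 5. In lung 2 of 24 rose and 1 fell, where 12.9% of all genes were called. In skin 3 of 23 rose and 1 fell, where 11.2% of all genes were called. The skin gene that fell was the copper chaperone Cox17, at -1.12 (SE 0.23). Its call was lost without any 1 young replicate or without vehicle replicate 5 (-1.22 to -0.94). Muscle and leukocyte markers differed between young and vehicle skin, and their part in Cox17 was not tested. Between ABT-737 and vehicle, edgeR called 1 of 22 in kidney, Cp, the copper-carrying ceruloplasmin, at -1.52 (SE 0.34), and 0 in lung and skin, where 1 and 4 had an unadjusted p under 0.05 and DESeq2 also called 0. The call for Cp was lost in 6 of 10 fits with 1 library left out (those without young replicate 1 or 4, vehicle replicate 4 or any ABT-737 replicate), with values from -1.57 to -1.04. Of the 7 oxidative stress genes tested, Gclc, an enzyme of glutathione synthesis, fell by 0.98 on the log2 scale (SE 0.15) in vehicle against young kidneys, where 2 others rose.

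Acute-phase genes, which interleukin 6 induces in hepatocytes together with metallothioneins, were higher in vehicle-treated old livers than in young ones. Of 25 tested, 17 rose and 0 fell in vehicle against young livers, where 22.6% of all genes were called, with a median log2 fold change of 1.40 against 0.02 over all genes, and 11 fell and 0 rose in ABT-737 against vehicle livers (3.85% of all genes called), with a median of -1.25 against -0.03. Serum amyloid gene Saa1 stood at 947, 7766 and 21559 CPM in vehicle replicates 3, 4 and 5. The highest vehicle liver differed within the list. It was replicate 5 for Saa1 and replicate 4 for Steap4 (144, 413 and 249 CPM in replicates 3, 4 and 5). For Mt1 and Mt2 it was replicate 4. A link between the acute-phase genes and the metallothioneins was not tested. With treated replicate 4 left out, 1 gene of this list fell with ABT-737, with treated replicate 5 left out 4 did, and with vehicle replicate 3 left out 18 did. The number was 4 when the young livers were left out of the fit.

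In the other tissues, 9 of 11 acute-phase genes rose in vehicle against young kidneys (13.3% of all genes called). Mt1 and Mt2 were not called there, and a link between them and the acute-phase genes was not tested. The count of acute-phase genes called in kidney was 4 without vehicle replicate 4. In lung 4 of 16 rose and 1 fell (12.9% of all genes called), and the calls numbered 2 without vehicle replicate 5. In skin 6 of 14 rose (11.2% of all genes called), against 0 without young replicate 1, young replicate 2 or vehicle replicate 5, 1 without young replicate 3 and 3 without ABT-737 replicate 4 or 5. Of the genes that glucocorticoids induce, 5 of 15 rose and 2 fell in vehicle against young livers (22.6% of all genes called). The median log2 fold change was 0.11 over the list and 0.02 over all genes. Ddit4, an inhibitor of mTOR signalling, stood at 3.03 (SE 0.49), Zbtb16 at 2.23 (SE 0.48) and Igfbp1, with overlapping groups, at 2.25 (SE 0.53). Errfi1 was called lower, at -1.87 (SE 0.37). Zbtb16 was also called higher in ABT-737 against young livers, at 2.72 (SE 0.47). Between ABT-737 and vehicle, edgeR called 0 of the glucocorticoid-induced genes in each tissue. An unadjusted p under 0.05 was reached by 4 of them in kidney and liver each and by 1 in lung and skin each. DESeq2 called 1 in kidney and 0 in the other tissues.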

How the data were processed

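RNA of 39 libraries from 4 tissues was sequenced from the 3' end (bulk MARS-seq). The deposited values are counts per gene, whole numbers without normalization, made by the authors. The submitters' processing notes name bcl2fastq, HISAT 0.1.5, HOMER and the mm10 genome; handling of molecular identifiers, of multiply mapped reads and of strand was not given in the sources used here. Kidney, liver and lung share a table of RefSeq genes, and skin has a table of Ensembl transcripts, so tests were run within a tissue and skin levels were not set against the others. Each library was assigned to its group from its GEO label, and no pair of libraries held the same counts. Replicates were biological according to the design text.

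Counts were fitted in R 4.3.3 with edgeR 4.0.16 (glmQLFit and glmQLFTest, limma 3.58.1), 1 fit per tissue over all 3 groups, after filterByExpr and TMM scaling, with Benjamini-Hochberg adjustment over all genes tested and a threshold of 0.05. The standard error is the log2 fold change divided by the square root of its F statistic. CPM are counts divided by the TMM-scaled library total, as edgeR's cpm gives them. Levels of kidney, liver and lung were scaled by TMM over 30 libraries. Likeness is Pearson's r of log2(CPM + 1), with 0.1 in place of 1 as an alternative. The scripts were tested on simulated data. Total counts set the precision: genes with few counts, as in liver, have wide errors, and intervals and the floor of 3 counts cover counting error only.

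The members and lists were chosen with earlier results of these data known. The text names the 5 members in every tissue, every other metallothionein, ZIP or ZnT gene called, up to 4 called genes per other list, tissue and comparison by size of the log2 fold change, and the 5 genes most like Mt1 or Slc39a14, of which some are left out. Alternatives were DESeq2 1.42.0, its size factors in edgeR, no filter on low counts, only the compared groups, the replicate number as a block, each library left out in turn, and for levels the total counts; those for the pathway lists and for named genes that are no members were chosen after seeing the data. Numbers 3 to 5 are shared by vehicle and ABT-737 libraries. In lung the deviations of same-numbered libraries from their group means correlated at 0.18, 0.30 and 0.43, against -0.57 to 0.30 for differently numbered libraries, so there the numbers were taken to pair the samples, a pairing that comes from the data and not from the labels.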

Additional observations from a re-analysis of the deposited data

How the results depend on the processing

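No log2 fold change of a member changed sign against a call under any alternative run. With 1 library left out, 3 of 498 values moved by over 1 SD between replicates. Leaving out 1 of 3 or 4 libraries can hardly move a value that far, so this count does not measure stability. Mt1 in ABT-737 against vehicle livers went from -3.22 to -1.92 without vehicle replicate 4 and lost its call, a shift below that bound. The cause of the changes below was not tested. Of the counts of members called, kidney vehicle minus young went from 1 to 0 with DESeq2 and with no filter, liver ABT-737 minus vehicle from 2 to 0 with only the compared groups, liver ABT-737 minus young from 1 to 2 with size factors, no filter or only the compared groups, skin vehicle minus young from 1 to 2 with DESeq2, no filter or only the compared groups, and skin ABT-737 minus young from 0 to 2 with DESeq2 and 1 with no filter. With 1 library left out these counts ran from 0 to 1, 0 to 2, 1 to 2, 0 to 2 and 0 to 3.

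Of other zinc transporters, kidney vehicle minus young went from 0 to 1 with no filter and 2 with the compared groups, liver vehicle minus young from 0 to 1 with size factors or no filter, liver ABT-737 minus young from 0 to 1 with no filter and 2 with the compared groups, lung vehicle minus young from 1 to 3 with DESeq2 or the compared groups, and skin ABT-737 minus young from 1 to 6 with DESeq2 and 5 with no filter. Left-out libraries gave 0 to 2 (kidney vehicle minus young), 0 to 1 (kidney ABT-737 minus young), 0 to 1 and 0 to 2 (liver, in the same order), 0 to 4 and 0 to 1 (lung) and 0 to 3 and 0 to 5 (skin).

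Of the pathway lists together, kidney ABT-737 minus vehicle went from 1 to 3 with DESeq2, 6 with no filter and 0 with the compared groups; liver ABT-737 minus vehicle from 13 to 21 with no filter and 5 with the compared groups; liver ABT-737 minus young from 7 to 20 with the compared groups. Lung ABT-737 minus vehicle went from 0 to 3 with no filter, lung ABT-737 minus young from 0 to 3 with DESeq2, 6 with no filter and 5 with the compared groups, skin vehicle minus young from 9 to 14 with DESeq2 and 15 with no filter, and skin ABT-737 minus young from 2 to 11 with DESeq2, 11 with no filter and 4 with the compared groups. For ABT-737 minus vehicle, ABT-737 minus young and vehicle minus young, left-out libraries gave 0 to 8, 1 to 6 and 12 to 25 for kidney, 2 to 23, 3 to 15 and 22 to 37 for liver, 0 to 1, 0 to 6 and 3 to 18 for lung; in skin the last pair gave 0 to 7 and 0 to 13.

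With the replicate block, liver ABT-737 minus vehicle called 1 member (Mt2 at -3.06, with Mt1 at -2.98 not called), and lung ABT-737 minus vehicle called 1 other zinc transporter and 5 pathway genes; over all genes the block called 142 (kidney), 273 (liver), 874 (lung) and 0 (skin), against 150, 215, 0 and 0 without it. Outside lung the pairing of numbers did not hold: same-numbered libraries correlated at -0.18, -0.21 and 0.02 in kidney, -0.02, 0.16 and -0.04 in liver and -0.57, -0.58 and 0.27 in skin.

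Scaled by total counts, mean levels moved by over 1 SD to 162 CPM (Mt1, young lung) and 173 (vehicle lung), for Slc39a14 to 42.2 and 30.2 (young and ABT-737 kidney), 134 and 102 (young and ABT-737 liver) and 16.7 (vehicle lung), for Slc30a1 to 76.2 (young kidney) and 35.7, 37.0 and 31.2 (young, vehicle and ABT-737 lung), and for Slc30a10 to 41.0 (ABT-737 liver). Depth limits Slc30a1 and Slc30a10 in liver, Mt2 in young livers, Slc30a1 in young skin and Slc39a14 in lung, where libraries held 3 to 55 counts of the gene.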
